A study of Mus musculus with 12 samples.

Results

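The loss of the second copy of Chd8 was examined in mouse embryonic stem cells (ESC) by setting KO libraries against HET libraries. The members were chosen by their labels, KO or CHD8_HET as genotype and embryonic stem cells as cell type, and are 4 of the 12 libraries of the series. The 2 KO ESC libraries come from cells with both copies of Chd8 altered (CHD8-/-) and the 2 HET ESC libraries from cells with 1 altered copy (CHD8+/-), all grown in 2i, a medium whose inhibitors hold the cells in a naive pluripotent state. Another 2 KO and 2 HET libraries, from neural progenitor cells (NPC) obtained by differentiation, lent their replicate spread to the tests and served as a comparison in libraries that the ESC contrast does not use. The 4 WT libraries were left out. The kind of alteration, the number of lines or clones per genotype and the passage are not given in the sources used here, and nothing in the labels says that libraries sharing a genotype were grown as separate cultures, so p-values speak of the variation among these libraries only, and that variation may be technical.

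CHD8 belongs to the CHD family of chromatin remodellers, enzymes that use ATP to move nucleosomes and that carry paired chromodomains. It binds mostly at promoters of active genes, and it has been described as a regulator of Wnt/beta-catenin and p53 target genes. In people, variants that inactivate a single copy are among the well established genetic causes of autism, which makes the step between a single remaining copy and none a question of dosage. The deposited files name transcripts by UCSC-style identifiers only, and 0 of them matched the gene tables used here, so the level of Chd8 in KO and HET cells, which would check the labels, the markers of pluripotent and neural cells and the lists of Wnt, p53 and CHD family genes were not analysed here. Transcripts are therefore identified by identifier, length and row number in the deposited files, which list the same 55419 transcripts in each library. What that order follows is not stated.

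Total estimated counts were 14220515 and 14766212 in the KO ESC libraries, against 12884157 and 13432274 in the HET ESC libraries. The NPC totals were lower, at 9089955 and 10813941 in KO and 9945753 and 9731881 in HET. The most abundant transcript held 19.7% and 27.4% of the counts in KO ESC, against 20.3% and 25.8% in HET ESC. KO replicate 2 was the most concentrated ESC library, with 46.7% of its counts in 50 transcripts. Its TMM scaling factor was 0.80, where those of the other ESC libraries ran from 0.90 to 0.94. The NPC factors, from the same scaling, ran from 1.09 to 1.17.

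KO and HET ESC were close to each other at the level of single transcripts. Across 28436 tested transcripts, Pearson's r of log2 CPM (counts scaled to library size) was 0.881 between the KO replicates and 0.880 between the HET replicates, against 0.864 to 0.882 between a KO and a HET library. Abundant transcripts parted the genotypes better than rare ones. Above a mean of 100 CPM the log2 ratio of a KO to a HET library had an SD of 0.373 to 0.466, against 0.316 and 0.323 between replicates. Below 2 CPM the values lay close together, at 1.67 to 1.72 for KO against HET and 1.66 and 1.65 for replicates. Transcripts are not independent replicates, so these values describe the libraries and carry no test.

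**Figure D1:**
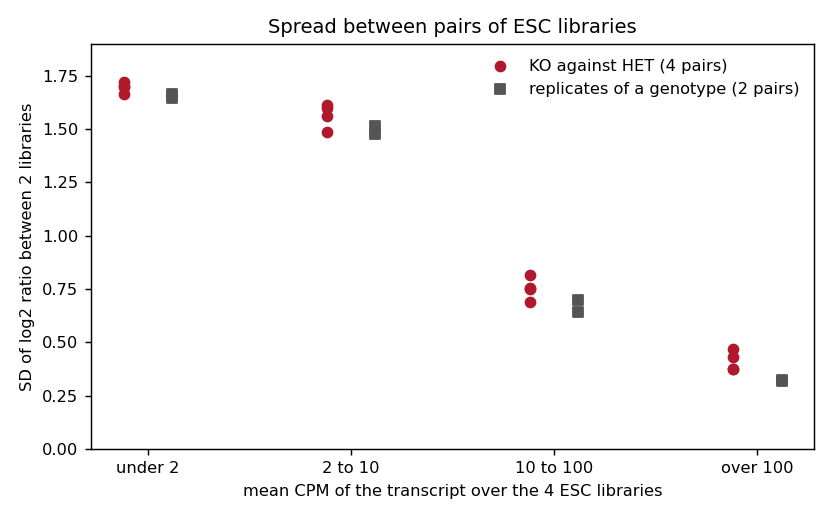
SD of the log2 ratio between pairs of ESC libraries (y axis), over transcripts of 4 classes of mean CPM in the 4 ESC libraries (x axis); red points are the 4 KO against HET pairs and grey squares the 2 pairs of replicates. In transcripts above 100 CPM every KO against HET pair (0.373 to 0.466) lies above both replicate pairs (0.316 and 0.323), and below 2 CPM the values nearly coincide.

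Only 1 of the 28436 transcripts (0.00352%) passed in KO against HET ESC, by edgeR's quasi-likelihood test with a Benjamini-Hochberg adjusted p under 0.05, and it was higher in KO. These are cultures in bulk, so fewer cells of a kind and less RNA per cell cannot be told apart. At an unadjusted p under 0.05 there were 2890 transcripts (10.2%), of which 1516 were higher in KO (5.33%) and 1374 lower (4.83%). The spread between replicates was wide, with a common dispersion of 0.318 and a biological coefficient of variation (its square root) of 0.564. DESeq2 called 1497 transcripts in the same counts, and limma called 5 on log2(TPM + 0.5).

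The transcript that passed was uc011zak.1, in row 12652 and 4665 bases long. It stood at 22.0 and 23.9 CPM in the KO ESC libraries and at 0 and 0 CPM in the HET ESC libraries. In NPC it had counts in HET as well, at 9.88 and 10.7 CPM in KO and at 4.68 and 4.65 CPM in HET. KO ESC averaged 23.0 ± 1.37 CPM, where HET ESC had no count (SD, n = 2 each), so the level was at least 92.0-fold higher in KO when HET is set at a floor of 3 counts per library (0.250 CPM; a limit for counting error only). Its adjusted p in ESC was 0.0374 by edgeR's quasi-likelihood test, and in NPC it was 0.317, with a log2 fold change of 1.14. The call ended when any 1 of the 4 ESC libraries was left out, with adjusted p between 0.0602 and 0.246, and in the fit of the 4 ESC libraries alone, at 0.36.

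The rows next to uc011zak.1 had counts in HET. Rows 12650 and 12651 are 4674 and 4671 bases long, within 1% of its length. Row 12650 had 0 and 0 estimated counts in KO ESC, against 114.6 and 30.3 in HET ESC. Row 12651 had 0 and 17.5 in KO ESC, against 0 and 67.7 in HET ESC. Whether these rows are forms of 1 gene is not stated in the files. An estimated count can pass from one near-identical transcript to another when reads fit both, and whether this happened here was not tested. The sum of the 3 rows, formed after these values had been seen, was 22.0 and 25.4 CPM in KO ESC and 9.63 and 8.11 CPM in HET ESC. The groups still did not overlap, as in 40.8% of all tested transcripts, and the difference of 1.42 on the log2 scale (SE 0.23), or 2.67-fold, no longer passed (adjusted p = 0.184, edgeR's quasi-likelihood test). In NPC the 3 rows summed to 9.88 and 10.7 CPM in KO and 4.68 and 6.41 CPM in HET, a log2 difference of 0.89 with an adjusted p of 0.417.

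The other named transcripts have values that did not pass, and were taken by the lowest unadjusted p at a mean of at least 5 CPM without overlap between the groups. uc007iyk.1, in row 6730 and 1454 bases long, was at 86.5 and 86.6 CPM in KO ESC and at 39.3 and 43.3 CPM in HET ESC. The KO replicates were almost equal, and the log2 fold change was 1.07 (SE 0.11; adjusted p = 0.171 by edgeR's quasi-likelihood test). In NPC it was at 174 and 163 CPM in KO and at 123 and 110 CPM in HET, a log2 fold change of 0.53 (adjusted p = 0.291).

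Of the transcripts with lower values in KO, uc009lti.2, in row 48222 and 1210 bases long, was at 62.8 and 57.0 CPM in KO ESC and at 142 and 129 CPM in HET ESC. Its log2 fold change was -1.18 (SE 0.11; adjusted p = 0.171 by edgeR's quasi-likelihood test). In NPC it was at 61.0 and 61.9 CPM in KO and at 93.4 and 101 CPM in HET, again without overlap and again short of the threshold (-0.66, adjusted p = 0.284). uc009mvn.1, in row 49045 and 3694 bases long, was at 14.6 and 14.0 CPM in KO ESC and at 36.8 and 34.6 CPM in HET ESC. Its log2 fold change was -1.32 (SE 0.14; adjusted p = 0.171), and in NPC it was -0.42 (adjusted p = 0.507). Both lie in a stretch of rows that was lower in KO as a whole, described below, as uc007iyk.1 lies in one that was higher. The transcripts and the stretches were picked on the same ESC libraries, so neither is separate support for the other.

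**Figure D2:**
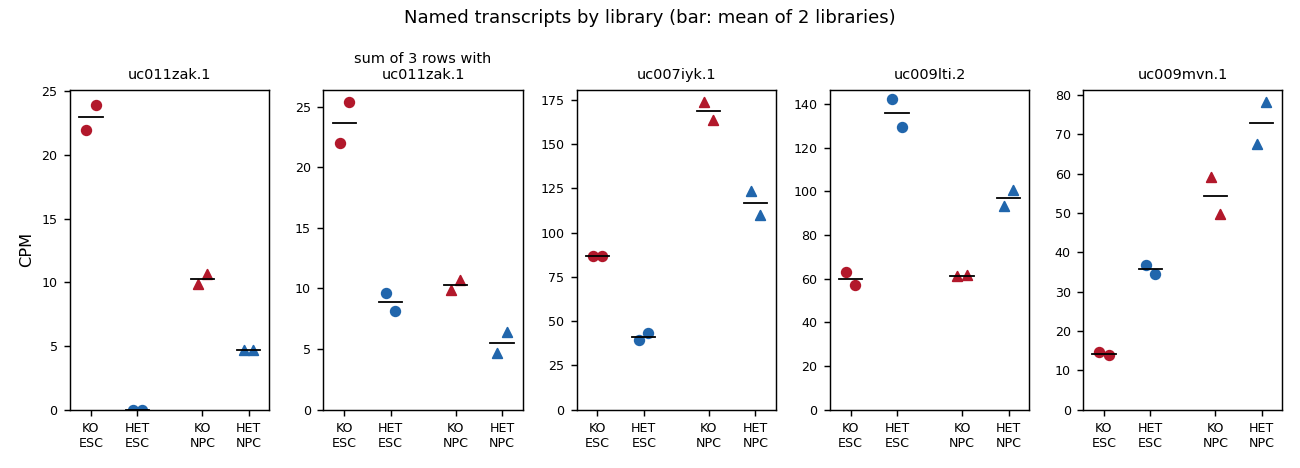
CPM (y axis, linear from 0) of the named transcripts, and of the 3 rows of nearly equal length with uc011zak.1, in each KO and HET library of ESC (circles) and NPC (triangles); the bar is the mean of 2 libraries. uc011zak.1 alone is at 0 in both HET ESC libraries, while the sum of the 3 rows is at 9.63 and 8.11 CPM there.

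Transcripts present in 1 genotype and absent from the other were counted without a test. In ESC, 231 of all 55304 features had at least 10 counts in both KO libraries and under 0.5 in both HET libraries, and 154 had the reverse. With counts thinned to the smallest ESC library, the numbers were 218 and 160. The 231 and the 154 transcripts were low, with a median of 2.31 CPM in KO for the first list and 2.48 CPM in HET for the second. Replicates of 1 genotype differ in the same way. Between single libraries, 1118 to 1312 transcripts were under 0.5 in one replicate with at least 10 counts in the other, against 1063 to 1394 for a KO and a HET library. Without KO replicate 1 the counts were 567 and 573, so the excess of the KO list was gone. The excess stayed without KO replicate 2 (628 and 507), without HET replicate 1 (624 and 529) and without HET replicate 2 (647 and 455). In NPC, 10 of the 231 transcripts (4.33%) were present in KO alone and 11 (4.76%) in HET alone by the same limits, and of the 154 transcripts 1 (0.649%) was present in KO alone and 2 (1.30%) in HET alone. Over all 55304 features, 182 (0.329%) were present in KO NPC alone and 189 (0.342%) in HET NPC alone. These shares are not of like transcripts. Of the 231 and the 154, 223 and 153 had enough counts to be tested, where 28436 of the 55304 features had.

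Neighbours of like length were counted for both lists. A row within 4 places and within 1% of the length existed for 84 of the 231 KO transcripts (36.4%) and for 49 of the 154 HET transcripts (31.8%), where 19.6% of all tested transcripts have one. Summed with those rows, 74 of the 84 left 0 in HET, and 48 of the 49 left 0 in KO. In sums of the 5 rows centred on each transcript, 0 of the 231 and 0 of the 154 stayed at 0 in both libraries of the other genotype. The 4 adjacent rows held at least 10 counts in the genotype at 0 for 99.6% of the 231 and 98.1% of the 154, close to the 96.8% (HET) and 97.1% (KO) of all tested transcripts.

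The estimated counts were also summed over sets of 3, 5, 10 and 20 neighbouring rows, which leaves aside how counts are split among the rows of a set. These sums were chosen after the test on transcripts had given 1 call, and all 4 sizes that were tried are given. The biological coefficient of variation was 0.255 in sets of 3 rows, 0.177 in sets of 5, 0.125 in sets of 10 and 0.0969 in sets of 20. By edgeR's quasi-likelihood test, 1 set of 3 rows was higher and 1 lower in KO ESC, of 14204 (0.0141%). In sets of 5, 56 were higher and 89 lower, of 9349 (1.55%). In sets of 10, 107 were higher (2.14%) and 177 lower (3.54%), of 5002 (5.68%). In sets of 20, 81 were higher and 182 lower, of 2584 (10.2%). Lower sets outnumbered higher ones at each size from 5 rows up.

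These calls lean on the NPC libraries and on each ESC library. In the 4 ESC libraries alone, with 2 residual degrees of freedom, edgeR called 0 sets of 10 rows, with 994 at an unadjusted p under 0.05, and DESeq2 called 467 in the 8 libraries. Sets of 10 rows passing numbered 111 without KO replicate 1, 47 without KO replicate 2, 4 without HET replicate 1 and 39 without HET replicate 2.

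**Figure D3:**
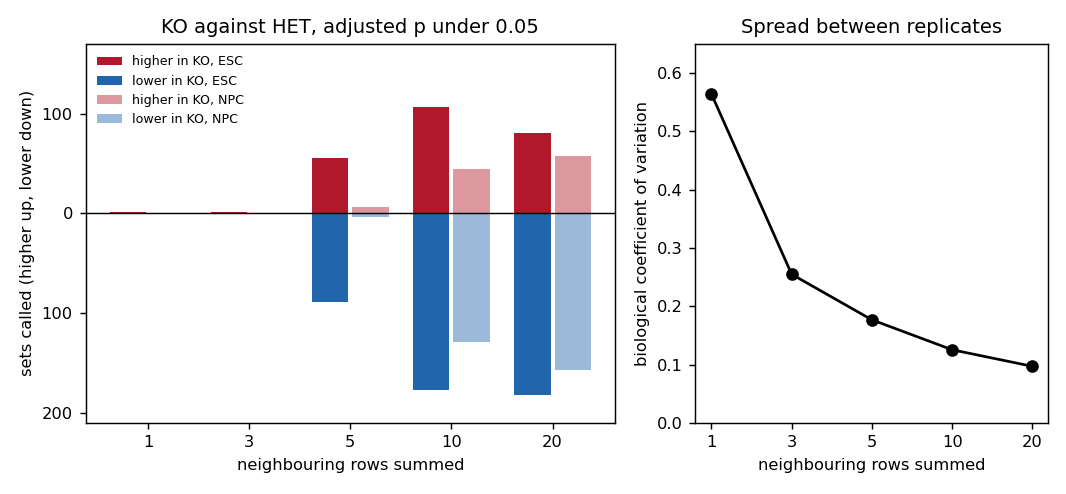
Left, number of sets (y axis, higher in KO upward and lower downward) with an adjusted p under 0.05 for sums of 1, 3, 5, 10 and 20 neighbouring rows (x axis), dark bars for ESC and pale bars for NPC; right, the biological coefficient of variation of the same fits. Calls in ESC go from 1 transcript to 284 sets of 10 rows while the coefficient goes from 0.564 to 0.125.

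The sets of 10 rows were described further, a size picked after all 4 had been seen. For those that passed with a rise in KO ESC, the median log2 fold change was 0.59 in ESC and 0.17 in NPC, and 79.4% of them had a value above 0 in NPC. Those called lower had a median of -0.63 in ESC and -0.42 in NPC, and 94.4% of them were below 0 in NPC. Over all sets, 64.5% had the same sign in both cell types. The gap between rises and falls lay in the stretches described below. Outside them, 83.7% of the called higher and 82.7% of the called lower sets had the same sign in NPC. Inside them the shares were 61.9% and 99.2%. In NPC the shares called were 0.00704% of sets of 3 rows, 0.107% of sets of 5 and 8.32% of sets of 20. Of the sets of 10, 45 were higher and 129 lower in KO NPC (3.48%), and 68 sets passed in both cell types in the same direction, which is 23.9% of the ESC calls and 39.1% of the NPC calls. Another 2 sets passed in opposite directions. The 2 contrasts share no library, but both take their spread from 1 fit of the 8 libraries. Their cells may also come from the same lines.

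Among sets outside the stretches described below, with a mean of at least 50 CPM, the 3 largest rises and 3 largest falls are given, a rule set after seeing the data. The set of rows 11331 to 11340 was at 86.3 and 107 CPM in KO ESC and at 36.5 and 45.5 CPM in HET ESC, a log2 fold change of 1.24 (SE 0.18; adjusted p = 0.0122 by edgeR's quasi-likelihood test). One row of 3579 bases, row 11339, held 61.3% of it. In NPC its groups overlapped, at 55.6 and 66.4 CPM in KO and 66.8 and 51.2 CPM in HET. Rows 31961 to 31970 were at 108 and 118 CPM in KO ESC and at 52.8 and 64.9 CPM in HET ESC (0.94, SE 0.17; adjusted p = 0.0203), and their groups also overlapped in NPC, with a log2 fold change of -0.0008. The largest rise of all was in rows 47261 to 47270, with 90.2% of the counts in row 47263 of 2255 bases. Its KO replicates stood far apart, at 447 and 896 CPM, against 139 and 186 CPM in HET ESC (2.04, SE 0.41; adjusted p = 0.0317). In NPC its groups overlapped, at 747 and 1364 CPM in KO and 866 and 597 CPM in HET (0.53, adjusted p = 0.509).

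The falls included a set that passed in both cell types. Rows 1301 to 1310 were at 88.2 and 89.2 CPM in KO ESC and at 157.2 and 156.7 CPM in HET ESC, a log2 fold change of -0.82 (SE 0.09; adjusted p = 0.0102 by edgeR's quasi-likelihood test), with 72.6% of the counts in row 1302 of 5694 bases. They fell in NPC as well, where they were at 124 and 114 CPM in KO and at 176 and 192 CPM in HET (-0.62, SE 0.09; adjusted p = 0.0244). Rows 49921 to 49930 were at 183 and 189 CPM in KO ESC and at 333 and 329 CPM in HET ESC (-0.83, SE 0.12; adjusted p = 0.0108), almost all of it in row 49928 of 4194 bases, with -0.42 in NPC (adjusted p = 0.0926). Rows 24471 to 24480 were at 92.4 and 65.6 CPM in KO ESC and at 179 and 136 CPM in HET ESC (-0.99, SE 0.18; adjusted p = 0.0212), and in NPC they had a log2 fold change of -0.11 (adjusted p = 0.79).

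Longer runs of neighbouring rows moved together. The 19665 tested transcripts with a mean of at least 2 CPM were divided, in row order, into 197 blocks of 100 (the last held 65), and the level of a block in a library was the mean log2 CPM of its transcripts. By limma with Benjamini-Hochberg adjustment over the blocks, 18 blocks rose in KO ESC relative to HET ESC (9.14%) and 20 fell (10.2%), 19.3% in all. The balance depends on how blocks are formed, with 37 higher and 16 lower of 141 at a mean of at least 5 CPM, 30 and 23 of 197 with block medians, and 19 and 10 of 98 with blocks of 200. Block differences, each between means of 2 libraries, had an SD of 0.173 on the log2 scale. Differences between 2 single libraries had an SD of 0.120 for the KO replicates and 0.106 for the HET replicates, so the measures are unlike. The block differences of KO and HET ran from -0.56 to 0.43 around a median of 0.06. Of the 20 lower blocks 18, and of the 18 higher blocks 6, lay in 4 stretches, each a run of at least 2 neighbouring blocks called in the same direction. Runs of this kind had been seen in earlier results of these data. The stretches were picked by their ESC differences. Those differences, the ESC calls of their blocks and the shares of transcripts on the same side therefore only describe them. The NPC differences were not used to pick them. The NPC libraries did share the estimate of spread behind the ESC calls, so calls in the 2 cell types are not fully separate. How many lines stand behind each genotype is unknown here, so line and genotype cannot be told apart. NPC may come from the same lines as the ESC, and a difference between lines could then recur in NPC. Whether a recurring difference goes with Chd8 or with the line was not tested.

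The largest stretch ran from row 47439 to row 49876, with 10 blocks and 1000 transcripts, and was lower in KO. Relative to the mean of the 4 ESC libraries its level was -0.17 and -0.24 in the KO replicates, against 0.21 and 0.20 in the HET replicates. The difference was -0.41 on the log2 scale, or 1.33-fold. All 10 blocks passed by limma, as the pick required, with adjusted p up to 0.0324. Of its transcripts 81.9% were below 0, where 48.8% of all those in the blocks were, and the pick itself raises that share. In NPC the difference was -0.36 and all 10 blocks passed there as well. In ESC the block before it (rows 47121 to 47438) differed by -0.10 (adjusted p = 0.349 by limma). The block after it (rows 49881 to 50190) differed by 0.006 (adjusted p = 0.965 by limma). That neither was called lower was fixed by the pick, since such a block would have joined the run.

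A second stretch lower in KO ran from row 40131 to row 42789, with 8 blocks and 800 transcripts. Its level was -0.17 and -0.18 in the KO ESC replicates and 0.14 and 0.21 in the HET ESC replicates, a difference of -0.35 or 1.28-fold. In ESC 75.5% of its transcripts were below 0. All 8 blocks passed in NPC too, where the difference was -0.44. The next block, of rows 42790 to 43130, went the other way, with 0.27 in ESC (adjusted p = 0.0234 by limma).

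The 2 stretches higher in KO differed in how they stood in NPC. Rows 6155 to 7108, with 4 blocks and 400 transcripts, had a level of 0.16 and 0.18 in the KO ESC replicates, against -0.18 and -0.16 in the HET ESC replicates. That is a difference of 0.34 or 1.26-fold, with 78.5% of the transcripts above 0, where 51.0% of all those in the blocks were. In NPC its mean difference was 0.0005 and none of the 4 blocks passed by limma, 0 even at an unadjusted p under 0.05. The difference between the cell types passed in 1 of these blocks, that of rows 6390 to 6638, but in 0 of 393 blocks of 50 by limma, with 37 at an unadjusted p under 0.05. Rows 39302 to 39834, with 2 blocks and 200 transcripts, had a level of 0.08 and 0.14 in the KO ESC replicates and of -0.10 and -0.12 in the HET ESC replicates, a difference of 0.22 or 1.17-fold. In NPC it was higher in KO by 0.39 and both blocks passed. Its call in ESC ended with blocks of 50 transcripts (adjusted p = 0.141 by limma). It also ended without KO replicate 2, without HET replicate 1 and without HET replicate 2, where the difference was 0.21, 0.24 and 0.22. The other 3 stretches kept theirs under every setting tried. Each stretch kept the rows picked on these ESC libraries, so a kept call is not separate support. With other block sizes its difference was unchanged, and only the shared spread and the adjustment moved.

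**Figure D4:**
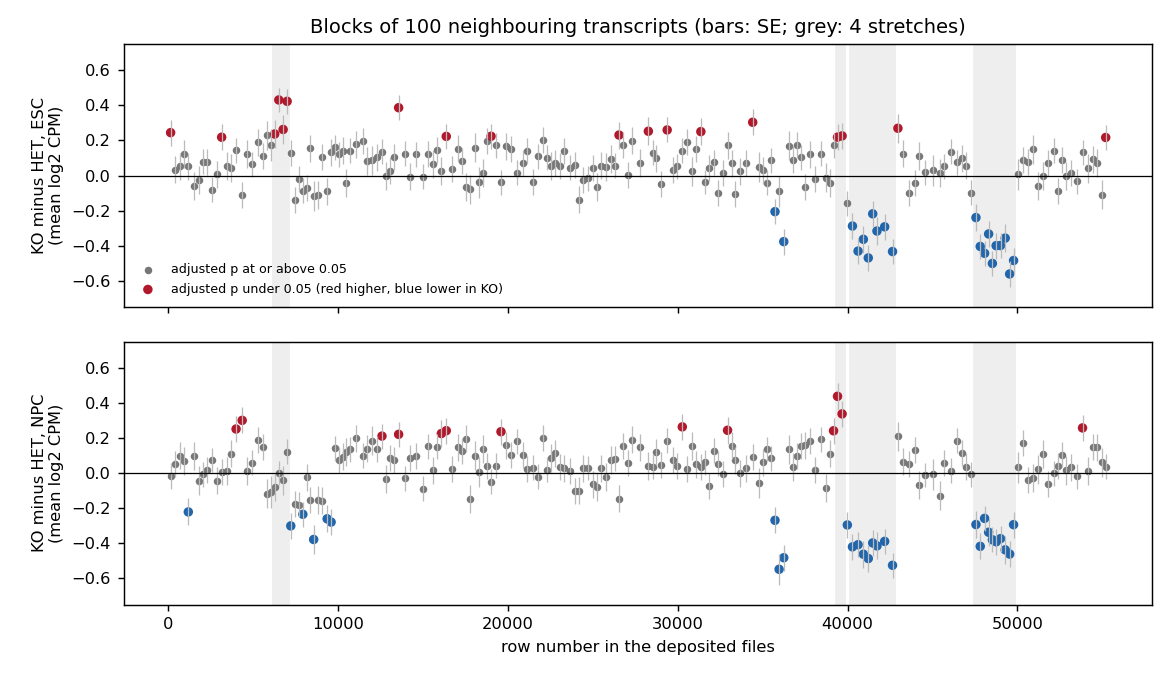
KO minus HET difference of mean log2 CPM (y axis) in each of 197 blocks of neighbouring transcripts, by row number in the deposited files (x axis), for ESC above and NPC below; bars are SE, coloured points passed at an adjusted p under 0.05 (red higher, blue lower in KO) and the 4 stretches are grey. The runs at rows 40131 to 42789 and 47439 to 49876 are below 0 in both panels, and the run at rows 6155 to 7108 is above 0 in ESC and around 0 in NPC.

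Length and level in the stretches lay close to those of all blocks. Median transcript length was 2691, 3139.5, 2860.5 and 2873.5 bases in the 4 stretches in row order, against 2952 in all blocks, and the median level was 11.6 to 13.6 CPM, against 11.0. They held 146 of the 284 called sets of 10 rows, of which 21 were higher and 125 lower in KO, while 4404 of all 5002 sets lay outside. Outside them the balance was the other way, with 86 higher and 52 lower (3.13%). Both counts follow in part from the pick, since it was made on the same ESC differences and took most of the lower blocks. When the rows of the stretches were taken out before the fit, 37 sets passed in ESC, 17 higher and 20 lower, so the calls outside also depend on the table they are fitted in.

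The genotype step in NPC was set beside that in ESC in units of several sizes. Across single transcripts, log2 fold changes in ESC and NPC had r = 0.05 over all 28436, 0.23 over the 10327 with a mean of at least 10 CPM and 0.43 over the 3194 with at least 50 CPM. Outside the stretches r was 0.18 over 8986 transcripts of at least 10 CPM. In sets of 3, 5, 10 and 20 rows r was 0.13, 0.19, 0.25 and 0.20, lower at 20 rows than at 10. Across the 197 blocks r was 0.70. The contrasts share no library, but transcripts, sets and blocks are not independent replicates, so these are descriptions. Both cell types may come from the same lines, so likeness between them is not separate support for an effect of Chd8. Of the blocks that passed in ESC, 24 also passed in NPC in the same direction, 20 lower and 4 higher, which is 63.2% of the ESC calls and 58.5% of the 41 NPC calls (20.8%). In 0 blocks did limma call opposite directions, where 56 blocks in ESC and 63 in NPC had an unadjusted p under 0.05. By edgeR 1 transcript passed in NPC (0.00352%), lower in KO, and 2370 had an unadjusted p under 0.05. The difference between the cell types passed in 0 transcripts by edgeR, with 1722 at an unadjusted p under 0.05 and 499 calls by DESeq2, in 2 sets of 10 rows and in 5 blocks (2.54%).

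**Figure D5:**
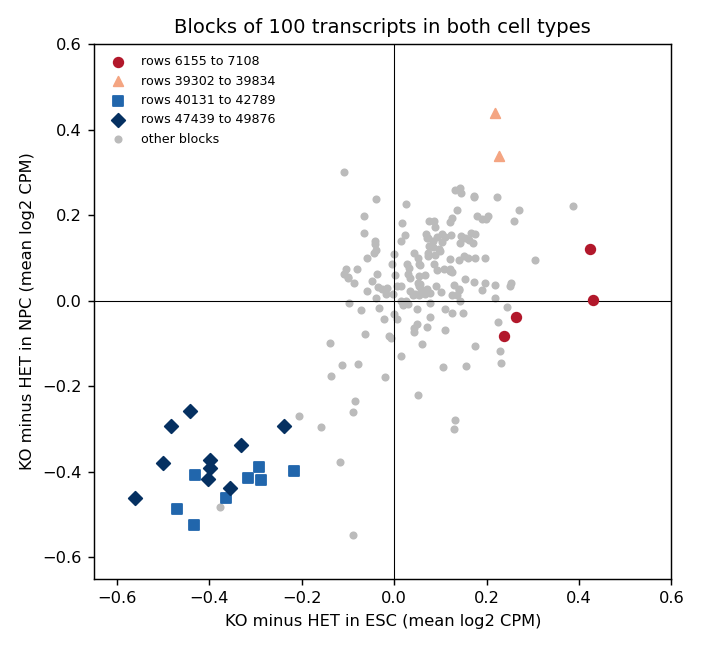
KO minus HET difference of mean log2 CPM in ESC (x axis) and in NPC (y axis) for 197 blocks of neighbouring transcripts, with the blocks of the 4 stretches marked. All 18 blocks of the stretches lower in KO lie below 0 on both axes, and the 4 blocks of rows 6155 to 7108 lie near 0 in NPC.

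Abundance and length were the last features compared. The share of transcripts at an unadjusted p under 0.05 in ESC was 5.02% below 2 CPM, 7.77% from 2 to 10 CPM, 16.5% from 10 to 100 CPM and 21.1% above 100 CPM, while the median size of the log2 fold change was 0.73, 0.44, 0.26 and 0.19. Those over 10000 bases, 349 in number, had a median log2 fold change of 0.16 with 61.9% above 0, against 0 and 49.9% for all tested transcripts. At an unadjusted p under 0.05 by edgeR, 5.33% of all tested transcripts were higher in KO and 4.83% lower (10.2% in all). Of these 349, 47 were higher and 14 lower (17.5% in all). Their median level, relative to the 4 libraries, was 0.10 and 0.02 in KO and -0.12 and -0.01 in HET, so the groups did not overlap but KO replicate 2 and HET replicate 2 lay close. The median of 0.16 was 0.10 without KO replicate 1 and 0.25 without HET replicate 2. The 132 transcripts of at most 300 bases had a median of 0.32, which rested on KO replicate 2: it was 0.02 without that library and 0.53 without KO replicate 1, and their relative level was -0.05 and 0.37 in KO, against -0.22 and 0.01 in HET.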

How the data were processed

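RNA was sequenced from KO and HET ESC and NPC, 2 libraries each. Per the labels' protocols, ribosomal RNA was depleted and a SMARTer kit gave stranded libraries. Per the submitters' processing notes, cutadapt 1.16, kallisto and the build mm9 were used, with no kallisto version given in the sources used here. Per the file headers, the deposited files hold estimated counts (expected counts, in which a read that fits several transcripts is shared among them), TPM, length and effective length for 55419 transcripts. The deposited TPM values, scaled within a library, served 1 alternative.

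Estimated counts were rounded. Transcripts with equal values (to 2 decimals) in all 8 libraries and at least 20 counts over them were merged, 193 transcripts in 78 sets; a first trial without a true minimum had merged more, and the minimum was set after it. With edgeR 4.0.16 in R 4.3.3, 28436 features kept by filterByExpr (minimum count 10) were scaled by TMM and fitted in 1 robust quasi-likelihood model over the 8 libraries with a mean per group, with 4 residual degrees of freedom, since the 4 ESC libraries alone leave 2. Tests were two-sided with Benjamini-Hochberg adjustment at 0.05. The SE of a log2 fold change is its size divided by the square root of F. CPM uses TMM-scaled library sizes. A permutation test of 2 against 2 libraries cannot go below p = 0.333 and was not used. Blocks (100 transcripts, at least 2 CPM, log2 CPM with a prior count of 2) were tested with limma 3.58.1, and DESeq2 1.42.0 was an alternative. Scripts were checked on simulated counts.

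Named transcripts were to pass at 0.05 with at least 5 CPM and no overlap, the 2 largest rises and 2 largest falls, with free places filled by the lowest unadjusted p. Members, lists and the row scan were chosen with earlier results of these data known. The sums of 3, 5, 10 and 20 rows, the sets of 10 named, the sums of rows of nearly equal length and their alternatives were chosen after seeing these results. Planned gene lists and the level of Chd8 were not analysed here because 0 identifiers matched the gene tables, and no sequence could be tied to a transcript. Depth was 9089955 to 14766212 counts per library; floors of 3 counts cover counting error only.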

Additional observations from a re-analysis of the deposited data

Results flagged for a closer look

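The following differences between KO and HET themselves differed between ESC and NPC, by the test of that difference; each value is the ESC difference minus the NPC difference on the log2 scale. In blocks of 100 transcripts, by limma, it was -0.41 in rows 4180 to 4536 (KO minus HET -0.11 in ESC and 0.30 in NPC), with an adjusted p of 0.0346. It was 0.43 in rows 6390 to 6638, a block of the first stretch (0.43 in ESC and 0.001 in NPC; adjusted p = 0.0342). In the block just after that stretch, rows 7109 to 7329, it was 0.43 (0.13 and -0.30; adjusted p = 0.0346). In rows 9494 to 9691 it was 0.41 (0.13 and -0.28; adjusted p = 0.0346), and in rows 35838 to 36096 it was 0.46 (-0.09 and -0.55; adjusted p = 0.0423). With blocks of 50 transcripts limma called 0 of 393, with 37 at an unadjusted p under 0.05.

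Of the sets of 10 rows, the set of rows 7571 to 7580 had a fitted difference of -11.8 on the log2 scale by edgeR's quasi-likelihood test (adjusted p = 0.00136). KO ESC and HET NPC were near 0, so that value depends on the prior count; with both at a floor of 3 counts per library, the difference is -9.02 or beyond. The call ended when sets started 5 rows later and in the fit of all 12 libraries. Nearly all of it was row 7580, of 6410 bases, with 0.5 and 0.5 estimated counts in KO ESC against 77 and 110.9 in HET ESC, and with 53 and 41 in KO NPC against 0.6 and 0.9 in HET NPC. Row 7581, of 6386 bases, which falls in the next set, had the opposite pattern, with 38.5 and 34.5 in KO ESC against 0 and 0.1 in HET ESC, and with 0 and 0 in KO NPC against 42.4 and 49.1 in HET NPC. Their sum was 39 and 35 counts in KO ESC against 77 and 111 in HET ESC, and 53 and 41 in KO NPC against 43 and 50 in HET NPC. The sum did not overlap between the genotypes in ESC and overlapped in NPC; it was not tested.

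The set of rows 8601 to 8610 had a difference of 1.98 (adjusted p = 0.0201 by edgeR's quasi-likelihood test). The call ended without either HET ESC library and without any 1 of the 4 NPC libraries. Its leading row 8609, of 1509 bases, had 256 and 207 estimated counts in KO ESC against 162 and 171 in HET ESC, and 183 and 230 in KO NPC against 560 and 698 in HET NPC. HET NPC stood apart, and the groups did not overlap in either cell type.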

How the results depend on the processing

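At the transcript level edgeR called 1 in ESC, and 0 with a mean of at least 10 CPM, in the 4 ESC libraries alone (2452 at an unadjusted p under 0.05), with the replicate block and in every fit without 1 ESC library. For uc011zak.1 the adjusted p with the replicate block was 0.499. DESeq2 called 1497 and limma on TPM 5. In NPC the call of 1 became 2 with all 12 libraries, 0 with the replicate block and without any NPC library, 970 with DESeq2 and 30 with limma. The test of the difference between cell types gave 0 by edgeR, 0 in each fit without a library, and 499 by DESeq2. Sums of 3, 5, 10 and 20 rows gave 2, 145, 284 and 263 calls in ESC, 1, 10, 174 and 215 in NPC and 1, 1, 2 and 1 for the difference. The named transcripts uc007iyk.1, uc009lti.2 and uc009mvn.1 passed with DESeq2 alone.

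For sets of 10 rows, calls in ESC were 0 in the 4 ESC libraries alone, 37 without the rows of the stretches, 467 with DESeq2 and 4 to 111 without 1 library. In NPC they were 6 without those rows, 385 with DESeq2 and 0 to 6 without 1 library. For the difference they were 1 with the replicate block, 1 with all 12 libraries, 31 with DESeq2 and 1 to 4 without 1 library.

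Blocks called in ESC were 62 of 393 with blocks of 50, and 25 to 43 without 1 library (25 without KO replicate 2); in NPC they were 90 with medians and 23 to 33 without 1 library. Blocks that differed between cell types were 0 with blocks of 50, 8 with at least 5 CPM, 12 with medians, 0 with the replicate block and 1 to 6 without 1 library. The stretches at rows 6155, 40131 and 47439 kept their direction and call in ESC in all 11 alternatives, with their rows held as picked on the same ESC libraries.

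Transcripts present in 1 genotype were 385, and 619 with a minimum of 5 counts, 196 with 20, 378 with counts thinned to the smallest library and 1102 to 1153 without 1 library. The correlation of ESC and NPC fold changes was 0.23 at 10 CPM, 0.106 at 2 CPM, 0.433 at 50 CPM, 0.181 outside the stretches and 0.171 to 0.205 without 1 library.

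The labels do not say that replicate numbers pair libraries. Deviations of same-numbered KO and HET libraries correlated at 0.06 in ESC and -0.05 in NPC over all transcripts, and at 0.20 and -0.21 over those of at least 10 CPM, with 2 pairs each. The replicate block left 269 of 284 calls in number among sets of 10 rows in ESC. Crossing the NPC numbers gave 0 transcripts, 991 sets of 10 rows in NPC and 241 for the difference. The ESC differences of the 4 stretches and the 4 named transcripts kept their sign in the alternatives run, while the NPC difference of the stretch at row 6155 ran from -0.04 to 0.05.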
